A study of Mus musculus with 4 samples.

Results

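The BH3-only death genes were taken as 8 genes of the mouse line Ba/F3: Bcl2l11 (BIM), Bid, Bbc3 (PUMA), Bmf, Bad, Bik, Hrk and Pmaip1 (NOXA). A gene counted as a member if a probe set on the array carried exactly its symbol and no other, and all 8 were found, with 1 probe set each, among 19935 genes measured. Ba/F3 is a pro-B cell line that lives and divides only with interleukin-3 (IL-3), and BCR-ABL, a fusion kinase that drives chronic myeloid leukaemia, can take the place of that growth factor. RNA was hybridised to 4 Affymetrix Gene 1.0 ST arrays in 3 groups. The parental line, which received IL-3, gave 1 array. Ba/F3 cells carrying a BCR-ABL gene that doxycycline switches on were kept in 500 ng/ml doxycycline, and were hybridised to 2 arrays for the culture condition lacking IL-3 (A and B below) and to 1 array for that containing IL-3. All cells were in logarithmic growth, in RPMI medium with serum. No label says whether the inducible line was 1 clone or whether A and B were separate cultures. The p-values therefore rest only on the spread between A and B, which may be technical. The limma fit took this spread mostly from all genes together and little from each gene's own gap. The series was designed to find genes driven by BCR-ABL and by the growth factor that bear on resistance to imatinib, the BCR-ABL inhibitor.

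BH3-only proteins are the triggers of the mitochondrial route of apoptosis. Each carries a short BH3 helix that docks into the groove of pro-survival proteins such as BCL2, BCL-XL and MCL1, and this frees BAX and BAK to open the outer mitochondrial membrane and release cytochrome c. BIM, PUMA and the cleaved form of BID bind every pro-survival partner and can also engage BAX and BAK directly, while BAD, BMF, BIK, HRK and NOXA bind a narrower set. In blood cells, loss of a cytokine is a classic signal that raises BIM and PUMA, in part through FOXO transcription factors, and kinases downstream of growth factor receptors and of BCR-ABL are known to restrain BIM.

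The values are log differences from the parental array, assumed to be log2, and the parental value is 0 for each of the 28815 probe sets. Levels of 1 gene therefore cannot be set against those of another, and whether defining markers of the line were present could not be read. Over all genes the median difference was 0.0044 on A, -0.077 on B and 0.0085 on the array with IL-3. Below, higher or lower without IL-3 means A and B against the parental array, which had IL-3. Of 11 markers of the Ba/F3 line, limma called 0 in either comparison. Of all genes, it called 2.87% lower and 5.19% higher without IL-3, and 0.00502% for added IL-3. At an unadjusted p under 0.05 there were 3 against the parental array and 0 for added IL-3. The 3 were Il3ra, Ptprc and Cd79b, all lower. At that level 6.86% of all genes were lower and 9.76% higher without IL-3, and 4.52% passed for added IL-3. The IL-3 receptor chain Il3ra was at -0.44 on A, -0.57 on B and -0.45 with IL-3 (limma, without IL-3, adjusted p = 0.054). The receptor chain Csf2rb was at 0.041, -0.056 and 0.067 on those arrays. Of 8 markers of T cells, macrophages, stroma and epithelium, the macrophage gene Adgre1 was called higher without IL-3 (limma, adjusted p = 6.23e-07), at 1.71 on A, 1.77 on B and 1.83 with IL-3, while Cd14 stood at 0.12, 0.12 and 0.040 and Csf1r at 0.022, -0.32 and -0.023 on those arrays. The part of other cells in the results below was not tested. Precision is limited by the small number of arrays, and the lone arrays were assumed to vary like A and B.

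Bcl2l11 was lower on A and B than on the parental array, and was the 1 member that limma called in this comparison. It encodes BIM, the member best known for carrying out death after cytokine loss. Its log2 difference from the parental array was -1.33 on A, -1.54 on B and -1.17 with IL-3 added. All 3 BCR-ABL arrays were more than 2-fold below the parental array, and the gap between A and B was 0.21. The mean of A and B was -1.43 ± 0.15 (SD, n = 2), a 2.70-fold decrease with a 95% interval of 2.14-fold to 3.40-fold (limma, SE 0.16, adjusted p = 1.02e-05). Only 31 of the 19935 genes had a lower mean on A and B. A gap of at least 2-fold on both A and B, in the lower direction, was found for 0.406% of genes. Which transcript forms the probe set covers was not read, so the long and short forms of BIM were not separated.

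The sequence before the Bcl2l11 start sites is shown because this is the member that limma called, and a Bbc3 stretch because it holds the same FOXO motif. RefSeq promoter sequences (build GRCm38.p6) were matched for 6 of the 8 members, in 12 windows of 250 bases that end at an annotated start. Bik and Pmaip1 were not matched. Capitals mark the FOXO motif GTAAACA on either strand, and lower case is the rest of the window, 5′ to 3′ along the gene.
Bcl2l11, first start, chr2:128125788-128126037, plus strand: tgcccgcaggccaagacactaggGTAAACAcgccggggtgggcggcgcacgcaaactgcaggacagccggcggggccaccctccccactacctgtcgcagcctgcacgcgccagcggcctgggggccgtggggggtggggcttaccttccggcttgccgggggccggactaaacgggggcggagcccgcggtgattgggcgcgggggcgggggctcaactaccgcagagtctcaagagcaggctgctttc
Bcl2l11, second start, chr2:128127325-128127574, plus strand: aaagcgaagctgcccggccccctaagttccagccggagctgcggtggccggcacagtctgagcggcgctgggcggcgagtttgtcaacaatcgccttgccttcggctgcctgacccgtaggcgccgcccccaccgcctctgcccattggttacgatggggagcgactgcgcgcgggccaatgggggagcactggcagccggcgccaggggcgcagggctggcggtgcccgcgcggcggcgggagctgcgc
Bbc3, second start, chr7:16310011-16310260, plus strand: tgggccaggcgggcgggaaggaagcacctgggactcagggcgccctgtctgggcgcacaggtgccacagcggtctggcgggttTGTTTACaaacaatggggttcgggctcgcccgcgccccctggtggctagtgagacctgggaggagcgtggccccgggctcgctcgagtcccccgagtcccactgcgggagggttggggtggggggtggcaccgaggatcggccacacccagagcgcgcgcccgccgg

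The Bcl2l11 match begins 227 bases before its first start and the Bbc3 match 167 bases before its second start, and neither overlaps a match to the other motifs searched. The motif was present in 2 of the 12 member windows and in 3.17% of all 32851 windows of this length. It was not found in the second Bcl2l11 window, in the other 2 Bbc3 windows (1 of which overlaps the one shown), or in those of Bad, Bid, Bmf and Hrk. A match is a string of letters, and binding by a FOXO protein was not measured. The Foxo transcripts are given with the regulators below.

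**Figure D1:**
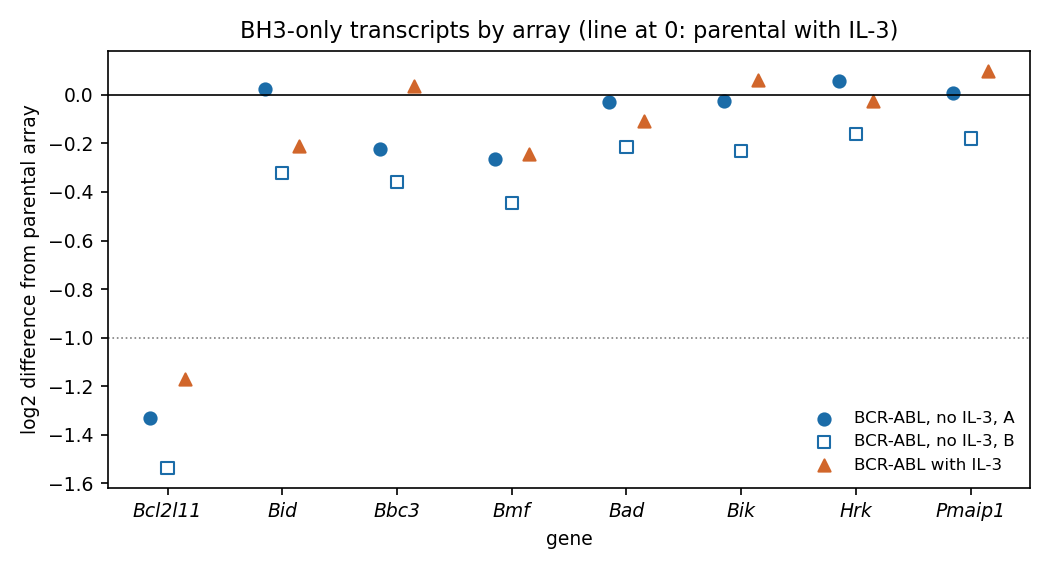
Log2 difference from the parental array (y axis) for the 8 BH3-only genes (x axis), 1 point per BCR-ABL array: A and B without IL-3 (blue circle and open blue square) and 1 with IL-3 (orange triangle). The solid line is the parental array and the dotted line a 2-fold decrease; Bcl2l11 lies at -1.33, -1.54 and -1.17, and no other point is below -0.45.

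Bid and Bbc3, which like Bcl2l11 encode activators that bind all pro-survival partners, did not pass the test. Bid, whose protein is cut by caspase-8 to link death receptors to mitochondria, was at 0.023 on A, -0.32 on B and -0.21 with IL-3. A lay on the parental side and B well below it, and their gap of 0.35 was the widest of the 8 members. Bbc3, which encodes PUMA, a target of p53 and of cytokine loss, was at -0.22 on A, -0.36 on B and 0.036 with IL-3. Both arrays without IL-3 were below the parental array, and the array with IL-3 was close to it. The mean of A and B was -0.15 ± 0.24 (SD, n = 2) for Bid and -0.29 ± 0.10 (SD, n = 2) for Bbc3. Their adjusted p-values by limma were 0.896 and 0.395, and the intervals of 95% ran from -0.50 to 0.21 and from -0.62 to 0.035.

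Bmf came next to Bcl2l11 in size, and it did not pass the test either. BMF is a member held at the cytoskeleton through a dynein light chain, as BIM is. Its transcript was at -0.26 on A, -0.45 on B and -0.24 with IL-3. All 3 BCR-ABL arrays were below the parental array, and A and the array with IL-3 nearly coincided. The mean of A and B was -0.35 ± 0.13 (SD, n = 2), or 1.28-fold lower, with a 95% interval of -0.69 to -0.023 (limma, unadjusted p = 0.0374, adjusted p = 0.246). Over all genes 6.86% were lower at an unadjusted p under 0.05, and Bmf and Bcl2l11 were the 2 such members.

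The other members that bind a narrower set of partners stayed closer to the parental array. Bad, whose protein is switched off by phosphorylation downstream of growth factor kinases, was at -0.030 on A, -0.22 on B and -0.11 with IL-3. Bik, whose protein sits mainly at the endoplasmic reticulum, was at -0.025, -0.23 and 0.059 on those arrays. For both genes A was close to the parental array and B was below it. Hrk, named for harakiri, was at 0.056 on A, -0.16 on B and -0.026 with IL-3. Pmaip1, a p53 target whose protein NOXA binds mainly MCL1, was at 0.0084, -0.18 and 0.10. For Hrk and Pmaip1 the 2 arrays without IL-3 fell on opposite sides of the parental array. Adjusted p-values by limma were 0.928 for Bad, 0.920 for Bik, 1.00 for Hrk and 0.977 for Pmaip1. The intervals of 95% ran from -0.45 to 0.21 for Bad, -0.46 to 0.21 for Bik, -0.39 to 0.28 for Hrk and -0.42 to 0.25 for Pmaip1.

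Against the parental array, then, limma called 1 of the 8 members lower and 0 higher at an adjusted p under 0.05, where 2.87% of all genes were called lower and 5.19% higher. At an unadjusted p under 0.05 there were still 0 members higher, against 9.76% of all genes, and 0 were at least 2-fold above the parental array on both A and B, against 0.903%. The mean of A and B was below 0 for all 8 members, as for 60.7% of all genes. A and B both lay below the parental array for 5 members (Bcl2l11, Bad, Bik, Bmf and Bbc3), against 42% of all genes, and both lay above it for 0 members, against 27.9%. The members' median was -0.14, where that of all genes was -0.038. B was below A in all 8 members, by 0.14 to 0.35, and in 66.2% of all genes, with a median gap of 0.065 over all genes. With the arrays centred on their medians B was still below A in all 8, against 50.8% of all genes, and both A and B lay above the parental array for 0 members, against 35.2%. The members' median was -0.027 on A alone and -0.28 on B alone, so it differed between A and B by more than its own size. The 95% interval of Bcl2l11 in log2, -1.77 to -1.10, did not meet that of any other member, whose lowest bound was -0.69 for Bmf; the difference between members was not tested. The effects of BCR-ABL, of doxycycline, of the inducible line itself and of lacking IL-3 cannot be told apart here.

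**Figure D2:**
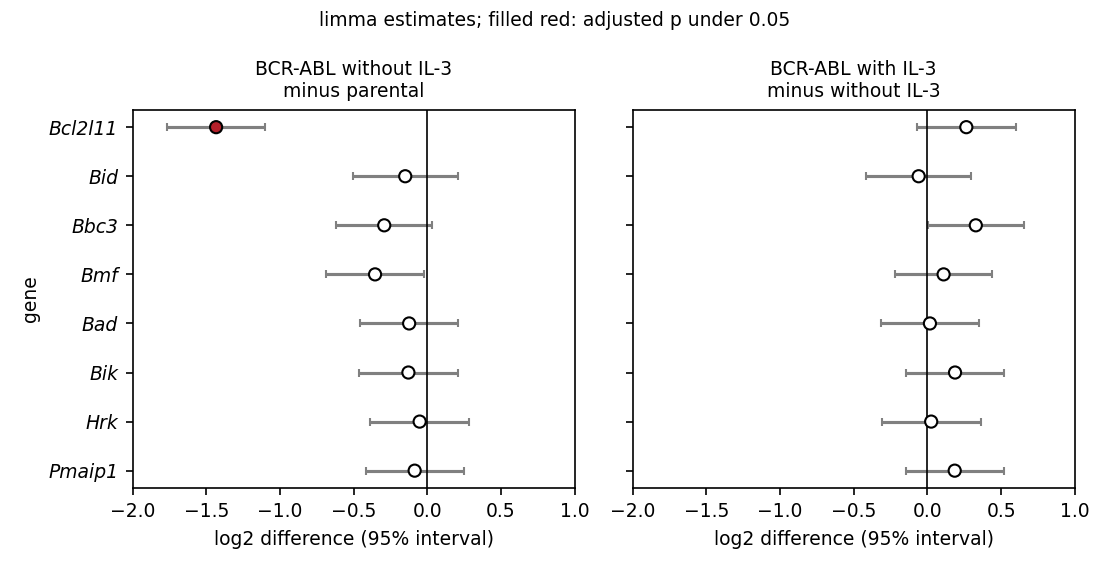
Log2 differences fitted by limma (x axis) with 95% intervals for the 8 genes (y axis), BCR-ABL without IL-3 (n = 2) minus parental (n = 1) on the left and BCR-ABL with IL-3 (n = 1) minus without IL-3 (n = 2) on the right. The filled red point is the 1 member with an adjusted p under 0.05, Bcl2l11 at -1.43 on the left; the widest departure on the right is Bbc3 at 0.33.

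BCR-ABL cells grown with IL-3 were then set against those grown without it, called added IL-3 here. The labels do not say when IL-3 was given. Limma called 0 of the 8 members in either direction, where 0.00502% of all genes were called, and Bbc3 was the 1 member with an unadjusted p under 0.05, against 4.52% of all genes. With the arrays centred on their medians there were 0 such members, against 4.39%. Bbc3 was higher with IL-3 by 0.26 than on A and by 0.40 than on B. The fitted difference was 0.33 (SE 0.16, 95% interval 0.0016 to 0.66), a 1.26-fold higher value that did not pass (limma, unadjusted p = 0.0490, adjusted p = 1.00). Bcl2l11 was higher with IL-3 by 0.16 than on A and by 0.37 than on B, with a fitted difference of 0.26 (SE 0.16, 95% interval -0.070 to 0.60, adjusted p = 1.00). Of its 2.70-fold decrease without IL-3, a 2.25-fold decrease was still measured on the array with IL-3. The interval of this difference reaches from slightly lower to clearly higher with IL-3, so 1 array did not resolve whether the transcript was higher with IL-3.

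For the other 6 members the fitted differences were 0.19 for Bik, 0.19 for Pmaip1, 0.11 for Bmf, 0.026 for Hrk, 0.017 for Bad and -0.059 for Bid, and the signs of Hrk and Bad turned after the arrays were centred on their medians (-0.010 and -0.019). The array with IL-3 lay above both A and B for 5 members (Bcl2l11, Bik, Bmf, Bbc3 and Pmaip1), against 39.9% of all genes, and below both for 0, against 25.5%. For Bad, Bid and Hrk it lay between A and B. The members' median difference was 0.15, or 0.051 against A alone and 0.24 against B alone, where that of all genes was 0.034. This comparison and the one before share A and B, so a member low on them by chance is pushed down in the first and up in the second.

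With IL-3 present in both, the BCR-ABL array was set against the parental array, 1 array on each side and without a test. Bcl2l11, at -1.17, was the 1 member at least 2-fold lower, a size reached downward by 0.517% of all genes, and 49 genes lay lower. No member was at least 2-fold higher, against 1.1% of all genes. At 1.5-fold the members' counts were the same, against 2.53% of all genes lower and 3.3% higher. Next lowest were Bmf at -0.24 and Bid at -0.21, followed by Bad at -0.11 and Hrk at -0.026. Bbc3, Bik and Pmaip1 were above the parental array, at 0.036, 0.059 and 0.10. In all, 5 members were below the parental array, against 47.4% of all genes, and the members' median was -0.066 where that of all genes was 0.0085. Bcl2l11, Bmf and Bad were the 3 members below the parental array on all 3 BCR-ABL arrays, as 31.5% of all genes were, and 0 members were above it on all 3, against 23.6%.

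**Figure D3:**
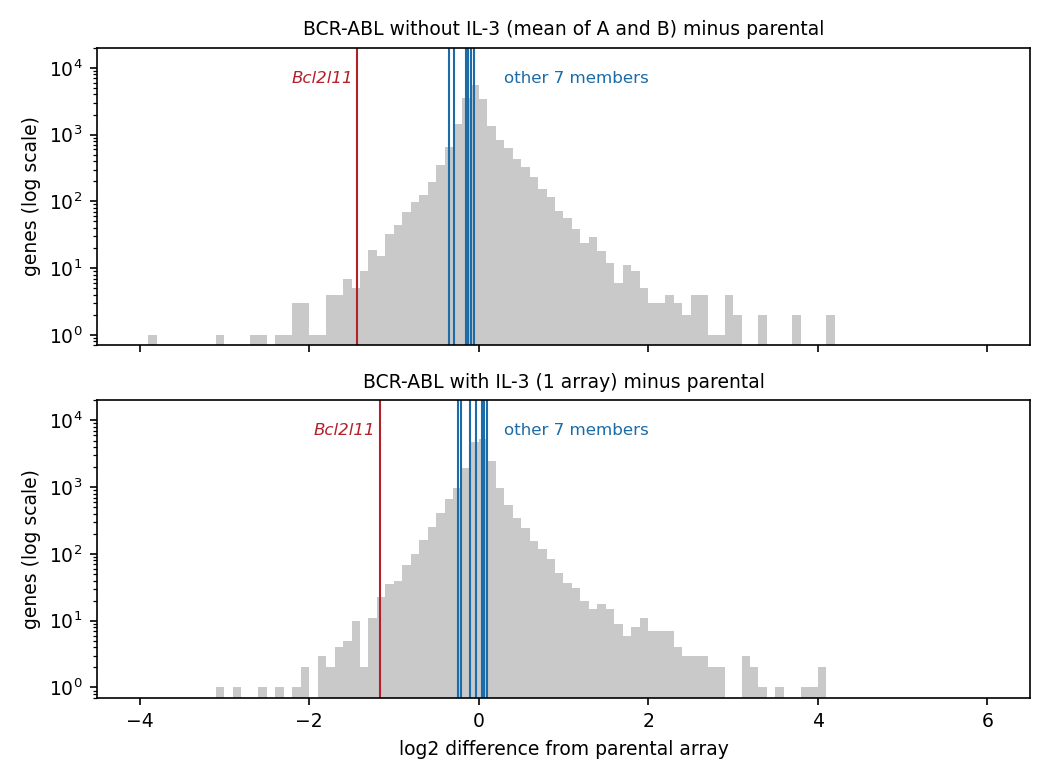
Number of genes (y axis, log scale) by log2 difference from the parental array (x axis, bins of 0.1) for the mean of A and B (upper panel) and for the BCR-ABL array with IL-3 (lower panel), with all 19935 genes in grey. Bcl2l11 (red line) is in the lower tail of both, at -1.43 and -1.17. The other 7 members (blue lines) lie closer to the parental array, from -0.35 to -0.05 in the upper panel and from -0.24 to 0.10 in the lower. In the upper panel 6.15% of genes lie below Bmf and 8.6% below Bbc3.

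Among the pro-survival partners, whose groove the BH3 helix fills, Bcl2 and Bcl2l1 were higher on A and B than on the parental array. Of 5 measured genes 2 were called higher and 0 lower, against 5.19% and 2.87% of all genes, with a median of 0.044. Bcl2 was at 0.87 on A, 1.11 on B and 0.87 with IL-3, and Bcl2l1, which encodes BCL-XL, at 1.00, 0.97 and 0.91. All 3 BCR-ABL arrays were above the parental array for both genes. By limma, Bcl2 was 1.99-fold higher (SE 0.16 in log2, adjusted p = 0.000523) and Bcl2l1 1.98-fold higher (SE 0.15, adjusted p = 0.000357). Mcl1, which encodes the main partner of NOXA, was at -0.34, -0.089 and -0.021, and Bcl2l2 at -0.19, 0.031 and -0.049; neither passed. The Bcl2a1 genes were not analysed here. Of the pore-forming genes Bak1 and Bok, 0 were called (1 at an unadjusted p under 0.05), with mean differences of 0.35 and -0.065, and Bax was not analysed here.

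Of 6 genes that act after the pore has opened, 3 were called higher and 0 lower without IL-3 (5.19% and 2.87% of all genes), with a median of 0.25. The called genes were Cycs (cytochrome c, 0.73), Htra2 (0.73) and Diablo (0.58), which encode proteins released from mitochondria. On the array with IL-3 they were also above the parental array, at 0.56, 0.59 and 0.43. After the arrays were centred on their medians none of the 3 was called by limma, with adjusted p-values of 0.0673, 0.0542 and 0.105. Apaf1, the scaffold that assembles caspase-9, was at -0.44 on A, -0.45 on B and -0.50 with IL-3 and did not pass (limma, adjusted p = 0.0956).

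Among 7 transcription factors known to act on BH3-only genes, 1 was called higher and 1 lower without IL-3 (5.19% and 2.87% of all genes), with a median of 0.057. Foxo4 was called lower, at -0.64 on A, -0.61 on B and -0.56 with IL-3 (limma, SE 0.15, adjusted p = 0.0136). Foxo3, the factor most often linked to Bcl2l11, was at -0.41 on A, -0.39 on B and -0.077 with IL-3 and did not pass (limma, adjusted p = 0.146). A and B agreed closely for Foxo3, and the array with IL-3 stood nearer to the parental one. Foxo1 stood at -0.041, -0.19 and 0.064. FOXO proteins are controlled mainly by phosphorylation and export from the nucleus, which arrays do not measure. Ddit3, which encodes CHOP, a stress factor that can raise Bcl2l11, was called higher (limma, SE 0.28, adjusted p = 0.0245), but its values were 0.49 on A, 1.63 on B and 2.0 with IL-3, so A and B differed by more than the value on A.

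Among 9 genes whose products modify or bind BH3-only proteins, 2 were called higher and 0 lower without IL-3 (5.19% and 2.87% of all genes), with a median of 0.29. Pim2, a kinase that phosphorylates BAD, was at 3.01 on A, 2.95 on B and 3.13 with IL-3, or 7.88-fold higher without IL-3 (limma, SE 0.15, adjusted p = 7.67e-10), while Bad itself was among the members near the parental array. Casp8, the protease that cuts BID, was at 0.55, 0.48 and 0.39 (limma, SE 0.15, adjusted p = 0.0468). The dynein light chains Dynll1 and Dynll2, which hold BIM and BMF, had mean differences of 0.29 and -0.081 without IL-3 and did not pass. For added IL-3, limma called 0 genes of these 5 lists. At an unadjusted p under 0.05 there were 3 of 29, all among the transcription factors, where 4.52% of all genes were. These were Ddit3, Jun and Foxo3, higher with IL-3 by 0.94, 0.54 and 0.32. Jun was at 0.33 on A, 0.64 on B and 1.03 with IL-3. Calls of Foxo4, Ddit3 and Casp8 were also lost with centring, with adjusted p-values by limma of 0.0721, 0.359 and 0.0783. Those of Bcl2, Bcl2l1, Pim2 and Bcl2l11 were kept, at 0.0461, 0.0247, 0.00248 and 0.0160, so Bcl2 passed only narrowly.

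**Figure D4:**
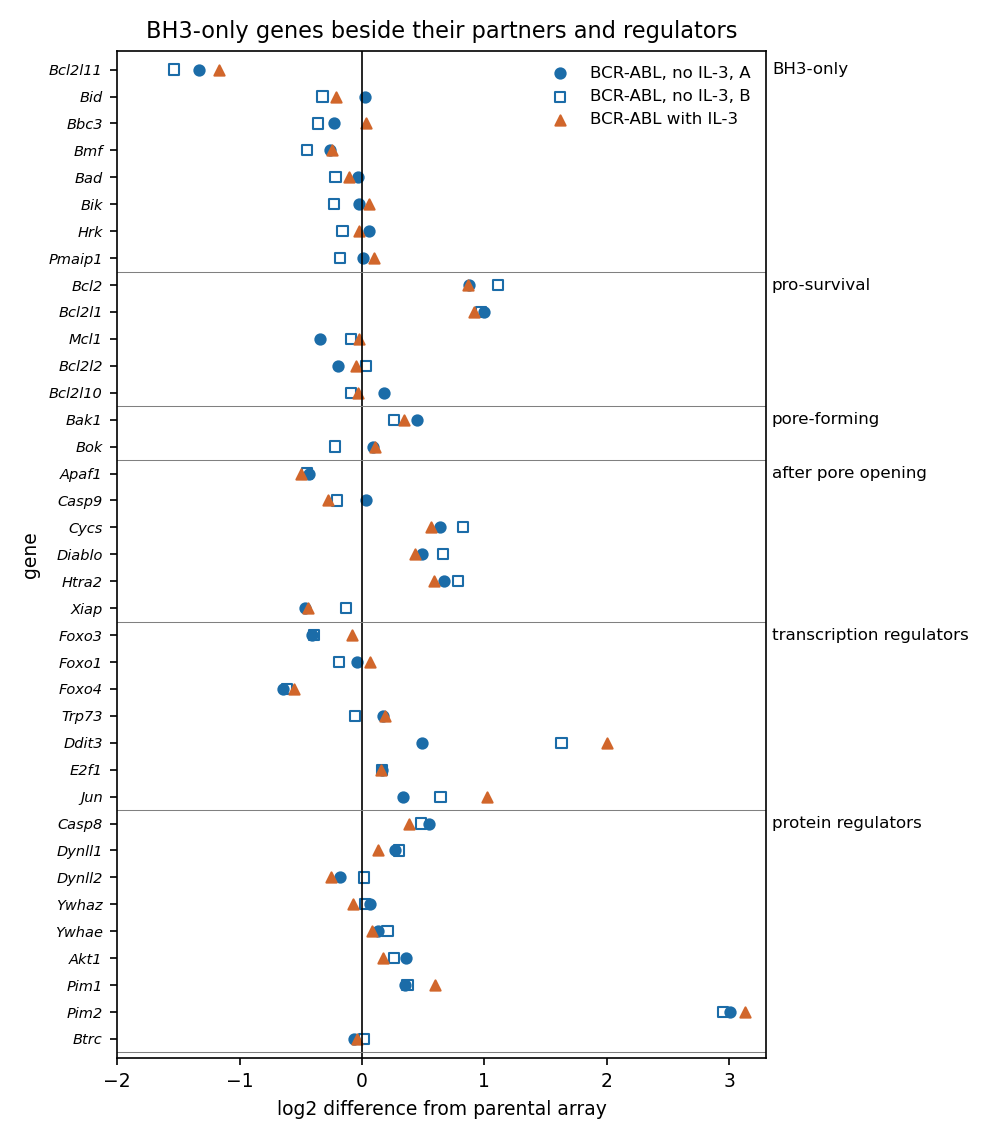
Log2 difference from the parental array (x axis) on A and B (blue circle and open blue square) and with IL-3 added (orange triangle) for the 8 BH3-only genes and 29 partners and regulators (y axis), grouped by role. Bcl2l11 lies near -1.4 on the left, Bcl2 and Bcl2l1 near 1 and Pim2 near 3 on the right, and Ddit3 shows the widest gap between A and B.

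The genes whose pattern was closest to that of Bcl2l11 were ranked by Euclidean distance over the 3 BCR-ABL arrays, as a description without a test. Abcg3, a member of the ABC transporter family, was nearest at a distance of 0.128 (log2 units), with -1.36 on A, -1.43 on B and -1.11 with IL-3. Mgst3, a microsomal glutathione transferase, followed at 0.157, with -1.30, -1.50 and -1.02. Vipr2, a receptor for vasoactive intestinal peptide, was at a distance of 0.183 with -1.16, -1.57 and -1.24. Pdzk1ip1 was at 0.183 and Itgb7, the integrin beta-7 chain, at 0.210.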

How the data were processed

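The 4 arrays were analysed from the authors' deposited table of log2 values, which holds differences from the parental array, as the values themselves show. The authors' background correction, normalization and log base are not given in the sources used here. Base 2 was assumed. Of 86431 non-zero values, 99.7% were integer multiples of 2 to the power -21. This was judged within the rounding of the printed digits or of single precision. It is the spacing of stored numbers between 4 and 8. The spacing does not show the base of the logarithm, so the fold values rest on the assumption. An odd multiple shows a stored number below 8 on some array (11202 probe sets, called dim), and 0 of the 8 member probe sets had one, although parity can hide it.

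Probe sets with exactly 1 symbol in the platform annotation (21780 of 28815; 1605 had several and 5430 none listed) were averaged per gene. Of these, 21689 matched RefSeq (GRCm38.p6) by gene identifier, including all 8 members. All 4 arrays were fitted as 3 group means in limma 3.58.1 (R 4.3.3), with 1 residual degree of freedom, the difference of A and B, and a prior of 16.38 degrees of freedom. Two-sided p-values were adjusted over 19935 genes by the Benjamini-Hochberg method, with calls at 0.05. The fit was tested on simulated data with the same spread on all 4 arrays and no offset between arrays. That test cannot show whether the lone arrays vary like A and B.

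Named were all members, every called gene of 5 lists of partners and regulators, up to 4 others per list, and the 5 genes nearest to Bcl2l11, leaving out predicted genes, numbered cDNAs, olfactory receptors and small RNAs. Lists of 11 Ba/F3 markers and of 8 measured markers of other cells were checked. Members and lists were chosen with earlier results of these data known. Motifs were chosen after the values were seen. Alternatives were centring, the threshold, the samples fitted, robust eBayes, dim probe sets, the summary or unit of probe sets, the size rule and leaving out A or B.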

Additional observations from a re-analysis of the deposited data

How the results depend on the processing

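The call of Bcl2l11 as lower without IL-3, the 0 other calls among members and the 0 calls for added IL-3 held under centring, robust eBayes, no dim probe sets and single probe sets. An adjusted p under 0.1 added no member. Fitting only the compared groups leaves the residual as it was, and the median of probe sets leaves a member's value as it was, so neither tests the call much. Over all these its log2 difference ran from -1.43 to -1.40 and its adjusted p from 1.02e-05 to 0.016, the latter after centring. Over all genes the calls without IL-3 fell from 1607 to 570 with centring and to 1061 of 28815 single probe sets. The prior fell from 16.38 degrees of freedom to 4.206 with centring and to 6.437 with single probe sets. The intervals given above come from the fit per gene without centring and rest on the larger prior. For added IL-3, centring turned Bad to -0.019 and Hrk to -0.010. Leaving out A or B leaves no residual degree of freedom, so these are values without a test: the members' median ran from -0.28 to -0.027 against the parental array and from 0.051 to 0.24 for added IL-3. With IL-3 against parental, Bcl2l11 remained the 1 member lower with centring, a 1.5-fold size or limma borrowing the spread of A and B. No paired analysis was possible because the lone arrays share no replicate number with A and B. Absolute signal over background was not analysed here, so whether a low-signal transcript hides a change could not be read.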

Other observations

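Other motifs were searched on both strands of the 12 member windows and described without a test. The GC box GGGCGG was in 8 of 12 windows, of the 5 genes Bad, Bbc3, Bcl2l11, Bid and Hrk, and in 32.74% of all windows. The E-box CACGTG was in 1, of Bbc3, and in 6.02% of all windows. The STAT motif TTCNNNGAA was in 0 and in 7.02% of all windows, and the E2F motifs TTTCGCGC and TTTGGCGC were in 0 and in 0.65%. The 3 Bmf windows held none of the motifs searched, with 54.0% to 55.6% G and C, where the 2 Bcl2l11 windows had 72.0% and 73.2%.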
